A study of Mus musculus with 2 samples.

Results

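Solute carrier genes encode the membrane proteins that move amino acids, sugars, nucleotides, vitamins, ions and metals between the cell, its surroundings and its organelles. The genes described here were those whose symbol starts with Slc, a family number, the letter a and a member number, in peak lists from ATAC-seq of mouse regulatory T (Treg) cells. The glucose, lactate and cystine carriers Slc2a1, Slc2a3, Slc2a6, Slc16a1, Slc16a3 and Slc7a11 were left out. In the list of the Treg-specific Tkt knockout (cKO) 191 of 19680 peaks, on 149 genes, met this rule, and in the wild-type (WT) list 328 of 34440 peaks on 193 genes did. Together they carried 195 of the 19459 gene symbols found in the lists. Tkt encodes transketolase, an enzyme of the pentose phosphate pathway. The cKO cells were CD4+CD25+YFP+ cells of Foxp3cre/+ TKTfl/fl females, and the WT cells were CD4+CD25+YFP+ cells of Foxp3cre/+ females without the floxed alleles. Both came from spleen and lymph node of untreated C57BL/6 mice aged 7 weeks, with 50000 cells per reaction, and there was 1 library per group. Foxp3 lies on the X chromosome, so in females with a single Cre allele only part of the Treg cells carry active Cre. The labels call these females chimeric, and the sort on YFP selected the Cre-expressing cells. With 1 library per group, no difference below could be set against replicate spread, and no test was possible.

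Growing and activated T cells take up amino acids through Slc1a5, a glutamine carrier, and through the dimer of Slc3a2 and Slc7a5, which imports leucine and other large neutral amino acids. The Slc25 family spans the inner mitochondrial membrane and carries nucleotides, phosphate, carboxylates, amino acids, iron and cofactors. Zinc leaves the cytosol through the Slc30 (ZnT) family and enters it through the Slc39 (ZIP) family. Thiamine, taken up by Slc19a2 and Slc19a3, is the precursor of thiamine pyrophosphate, the cofactor of transketolase. ATAC-seq marks open chromatin, and an open promoter is not a measure of transcription or transport.

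Promoter sequence was examined first, since many carriers have starts in CpG-rich DNA. RefSeq promoter windows (build GRCm38.p6, the same assembly as mm10) reach from 250 bases before to 50 bases after a gene's start, and 263 of the 349 RefSeq symbols that fit the rule had one. The 250 bases before the start are shown for carriers with strong peaks in both libraries (Slc7a1, Slc25a28, Slc25a42 and Slc19a2), for carriers whose start lay under a WT peak alone (Slc43a1, Slc25a4 and Slc25a20) and for the sperm ADP/ATP carrier Slc25a31, whose start lay under no peak. CG dinucleotides are in capitals.
Slc7a1 (chr5:148399905-148400154, minus strand): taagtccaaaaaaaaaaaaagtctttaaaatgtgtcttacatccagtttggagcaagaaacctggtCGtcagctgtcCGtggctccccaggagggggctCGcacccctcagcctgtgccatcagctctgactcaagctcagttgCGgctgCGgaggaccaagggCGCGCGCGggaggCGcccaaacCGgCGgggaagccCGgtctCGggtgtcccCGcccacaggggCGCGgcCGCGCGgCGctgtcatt
Slc43a1 (chr2:84840073-84840322, plus strand): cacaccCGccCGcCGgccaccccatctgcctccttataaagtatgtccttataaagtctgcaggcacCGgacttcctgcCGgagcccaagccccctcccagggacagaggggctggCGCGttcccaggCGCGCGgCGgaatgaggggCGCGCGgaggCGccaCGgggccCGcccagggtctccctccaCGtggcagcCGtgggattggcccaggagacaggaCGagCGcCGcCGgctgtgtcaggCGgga
Slc25a28 (chr19:43674882-43675131, minus strand): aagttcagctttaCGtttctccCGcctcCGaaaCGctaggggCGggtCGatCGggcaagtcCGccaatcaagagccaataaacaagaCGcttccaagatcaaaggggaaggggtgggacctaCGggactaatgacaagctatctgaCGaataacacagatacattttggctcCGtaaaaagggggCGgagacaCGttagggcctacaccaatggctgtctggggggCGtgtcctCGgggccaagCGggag
Slc25a42 (chr8:70212282-70212531, minus strand): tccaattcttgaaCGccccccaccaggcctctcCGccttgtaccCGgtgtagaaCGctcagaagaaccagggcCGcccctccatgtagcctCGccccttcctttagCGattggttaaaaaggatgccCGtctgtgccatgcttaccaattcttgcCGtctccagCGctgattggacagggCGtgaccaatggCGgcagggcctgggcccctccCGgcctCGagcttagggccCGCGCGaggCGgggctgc
Slc25a4 (chr8:46211063-46211312, minus strand): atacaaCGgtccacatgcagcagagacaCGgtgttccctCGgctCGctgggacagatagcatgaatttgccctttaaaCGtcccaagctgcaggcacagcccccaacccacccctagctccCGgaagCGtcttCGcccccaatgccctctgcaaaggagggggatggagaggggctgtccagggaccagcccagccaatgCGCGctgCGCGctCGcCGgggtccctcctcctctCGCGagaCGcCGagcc
Slc25a20 (chr9:108661886-108662135, plus strand): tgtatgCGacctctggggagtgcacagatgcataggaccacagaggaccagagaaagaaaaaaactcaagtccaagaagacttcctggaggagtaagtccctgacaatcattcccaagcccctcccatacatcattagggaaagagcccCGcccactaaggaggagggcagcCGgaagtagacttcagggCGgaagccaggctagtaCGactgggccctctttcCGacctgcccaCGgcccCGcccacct
Slc25a31 (chr3:40708621-40708870, plus strand): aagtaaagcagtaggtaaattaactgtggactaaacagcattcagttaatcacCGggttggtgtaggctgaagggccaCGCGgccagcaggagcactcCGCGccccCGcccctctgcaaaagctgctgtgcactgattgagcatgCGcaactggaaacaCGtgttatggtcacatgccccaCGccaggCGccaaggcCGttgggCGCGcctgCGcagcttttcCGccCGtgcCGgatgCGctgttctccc
Slc19a2 (chr1:164248796-164249045, plus strand): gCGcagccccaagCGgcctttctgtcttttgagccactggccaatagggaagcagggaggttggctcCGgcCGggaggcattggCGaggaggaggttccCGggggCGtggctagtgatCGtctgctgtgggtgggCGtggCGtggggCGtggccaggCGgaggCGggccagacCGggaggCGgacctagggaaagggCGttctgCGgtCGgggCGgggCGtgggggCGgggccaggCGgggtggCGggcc
In these 250 bases Slc7a1 had 21 CG dinucleotides, Slc25a28 17, Slc25a42 18 and Slc19a2 23. Slc43a1 had 24, Slc25a4 18 and Slc25a20 8, and Slc25a31 also had 18. The number of CG dinucleotides therefore did not separate these examples by whether their start was open. Over whole 300-base windows the median was 22.0 CG dinucleotides at the 103 carrier starts under peaks of both lists, 20.0 at the 15 under a WT peak alone and 7.00 at the 145 under none, beside 22.0, 15 and 4.00 over all RefSeq promoters in the same 3 states.

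Start windows of mitochondrial and zinc carriers were more often under a peak than those of amino acid carriers. Over all 263 carriers 103 (39.2%) lay under a cKO peak and 118 (44.9%) under a WT peak. The shares were 33.6% in cKO and 38.9% in WT over all 27025 RefSeq genes. Over the 17492 protein coding RefSeq genes they were 44.9% in cKO and 51.2% in WT, so carriers lay below these. Of the 36 mitochondrial carriers with a window, 25 (69.4%) lay under a cKO peak and 29 (80.6%) under a WT peak. Of the 20 zinc carriers these were 14 (70.0%) in cKO and 16 (80.0%) in WT, and of the 43 amino acid carriers 14 (32.6%) in cKO and 16 (37.2%) in WT. Starts were counted by gene, with all windows of a gene pooled. So counted, no carrier was open in cKO alone, beside 54 of all 27025 RefSeq genes. Single windows differed: Slc39a11 had 2 under cKO peaks and 1 under a WT peak. Slc29a1 had 5 under cKO peaks and 4 under WT peaks. Of the 118 carriers open in WT, 103 (87.3%, 95% interval 80.1 to 92.1) were also open in cKO. This share was 85.8% over all RefSeq genes and 87.3% over protein coding ones. This and every interval below is a Wilson interval on peaks or genes and covers counting error only.

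**Figure D1:**
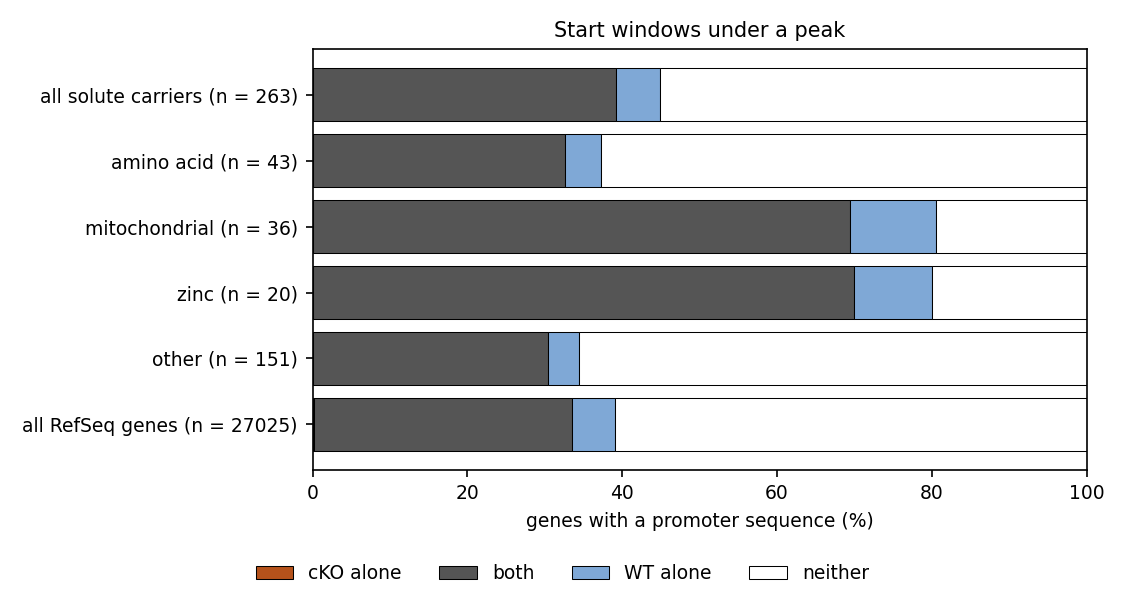
Share of genes (horizontal axis, percent of genes with a RefSeq promoter window) whose window lay under a peak of the cKO list alone, of both lists, of the WT list alone or of neither. A WT peak covered 80.6% of mitochondrial, 80.0% of zinc, 37.2% of amino acid and 34.4% of other carrier starts. With the windows of a gene pooled, no carrier was open in cKO alone, beside 54 of all 27025 RefSeq genes.

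Motif letters were counted on both strands of the same windows. The cores of the metal response element, which the zinc-sensing factor MTF1 binds, are TGCACNC and TGCGCNC. They were in 9 of 20 zinc carrier windows (45.0%), in 85 of 263 carrier windows (32.3%) and in 25.8% of all windows. Among windows open in both libraries they were in 5 of 14 zinc carriers (35.7%) and 37 of 103 carriers (35.9%), beside 37.8% of all. Of the 4 zinc carrier windows open in neither library 3 held a core, beside 18.5% of all such windows. The zinc exporter Slc30a1, known as an MTF1 target, and the vesicular zinc carrier Slc30a2 are shown with these cores in capitals, because the first was open in both libraries and the second in WT alone.
Slc30a1 (chr1:191906531-191906780, plus strand): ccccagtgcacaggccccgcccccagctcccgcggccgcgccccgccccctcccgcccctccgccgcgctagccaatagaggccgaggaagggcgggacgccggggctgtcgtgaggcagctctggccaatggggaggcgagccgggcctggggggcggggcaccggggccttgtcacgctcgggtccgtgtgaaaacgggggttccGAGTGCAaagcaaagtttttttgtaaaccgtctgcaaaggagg
Slc30a2 (chr4:134343216-134343465, plus strand): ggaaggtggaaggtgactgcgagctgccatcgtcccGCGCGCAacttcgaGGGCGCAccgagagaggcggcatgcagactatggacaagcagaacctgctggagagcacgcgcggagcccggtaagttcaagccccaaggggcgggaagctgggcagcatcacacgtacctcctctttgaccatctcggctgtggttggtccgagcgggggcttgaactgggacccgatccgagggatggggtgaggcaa
In the bases shown, Slc30a1 has 1 core, which begins 43 bases before the start, and its whole 300-base window holds 2. In Slc30a2 the cores begin 214 and 200 bases before the start. The E-box CACGTG was in 34 carrier windows (12.9%) and in 7.25% of all windows. The amino acid response element core TGATGNAA was in 10 carrier windows (3.80%), beside 4.04% of all, and in 3 of 43 amino acid carrier windows. The NRF1 core GCGCATGC was in 8 carrier windows (3.04%), beside 2.83% of all, and in 2 of 36 mitochondrial carrier windows (5.56%). It was in 0 of the 25 mitochondrial windows open in both libraries, beside 6.20% of all windows open in both. Of the 7 mitochondrial windows open in neither 2 held it, beside 0.996% of all such windows. The antioxidant response element core TGANNNNGC was in 118 carrier windows (44.9%), beside 41.4% of all. The searched motifs can share bases with each other, and carrier windows had a median GC content of 58.7%, beside 53.0% over all windows. A match of letters is a description and not a binding site.

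In both lists the share of carrier peaks overlapped by the other list was close to that of all peaks. A peak counted as shared when a peak of the other list overlapped it by at least 1 bp. Of the 191 cKO carrier peaks 188 were shared (98.4%, 95.5 to 99.5), beside 97.6% of all cKO peaks. Of the 328 WT carrier peaks 186 were shared (56.7%, 51.3 to 62.0), beside 56.1% of all WT peaks. The share varied more with position than between carriers and all peaks. Of 161 WT carrier peaks in the promoter class, which spans 3 kb around a transcription start site (TSS), 127 were shared (78.9%, 71.9 to 84.5), beside 74.3% of all WT promoter peaks. Of 74 WT intron peaks 23 were shared (31.1%, 21.7 to 42.3), beside 39.8% of all, and of 52 distal intergenic peaks 17 (32.7%, 21.5 to 46.2), beside 42.9% of all. Exon, downstream and 3' UTR peaks together came to 19 shared of 41 (46.3%, 32.1 to 61.3), beside 42.7% of all. Promoter peaks made up 67.5% of cKO carrier peaks and 49.1% of WT carrier peaks, beside 57.8% and 44.5% of all peaks.

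**Figure D2:**
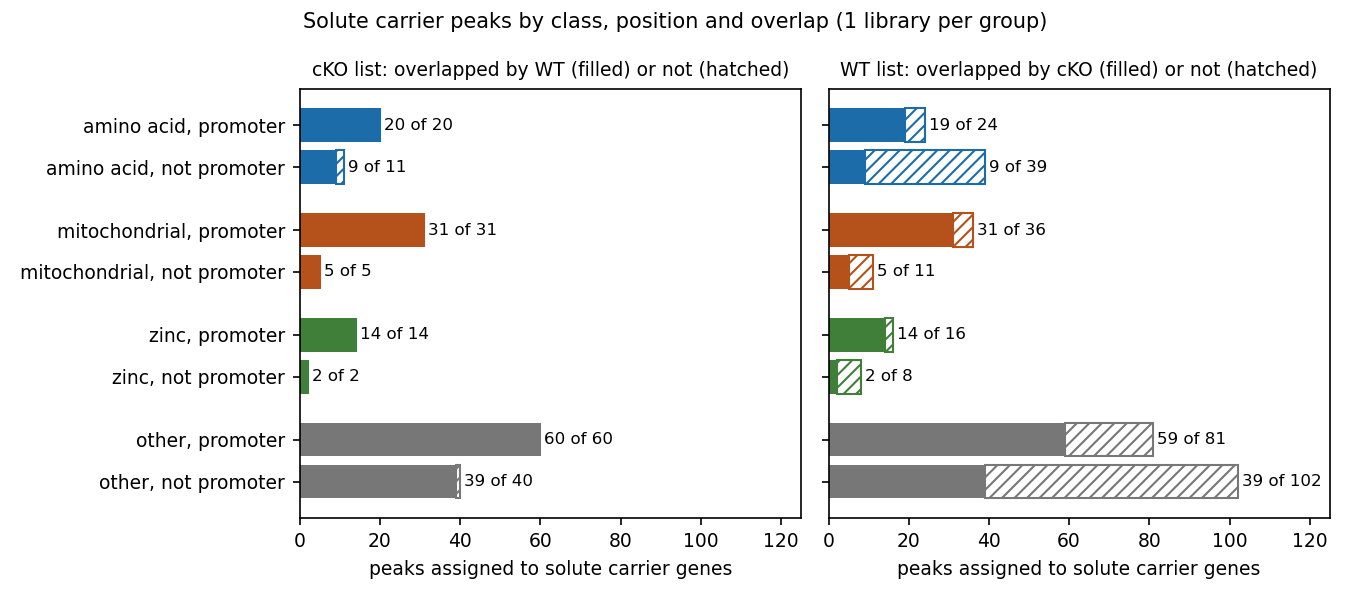
Number of peaks (horizontal axis) assigned to solute carriers in the cKO list (left) and the WT list (right), by class and by position in or outside the promoter class. Filled bars were overlapped by a peak of the other list and hatched bars were not, and most hatched area lies outside promoters in the WT list. There 30 of 39 amino acid carrier peaks were unshared, beside 11192 of 19101 WT peaks at large.

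Overlap followed the score rank. The authors' peak score was turned into a percentile within its own list, with 0 the lowest and 100 the highest. The lists differ in length and the depth of either library is unknown, so percentiles from cKO and WT are set side by side and not compared. Among WT carrier peaks in the lowest, middle and highest of 3 equal parts of the WT list, 16 of 105 (15.2%), 56 of 102 (54.9%) and 114 of 121 (94.2%) were shared, beside 15.2%, 56.2% and 96.8% of all WT peaks in the same parts. With the WT list cut into 10 equal bins by score, all 103 carrier peaks in the 3 highest bins were shared. Of all WT peaks 94.7%, 98.8% and 99.5% were shared in bins 8, 9 and 10. Unshared WT carrier peaks had a median percentile of 23.8 and a median width of 703 bp, and shared ones 72.5 and 1178 bp. A missing cKO peak cannot be told apart from one that fell below the peak caller's threshold.

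**Figure D3:**
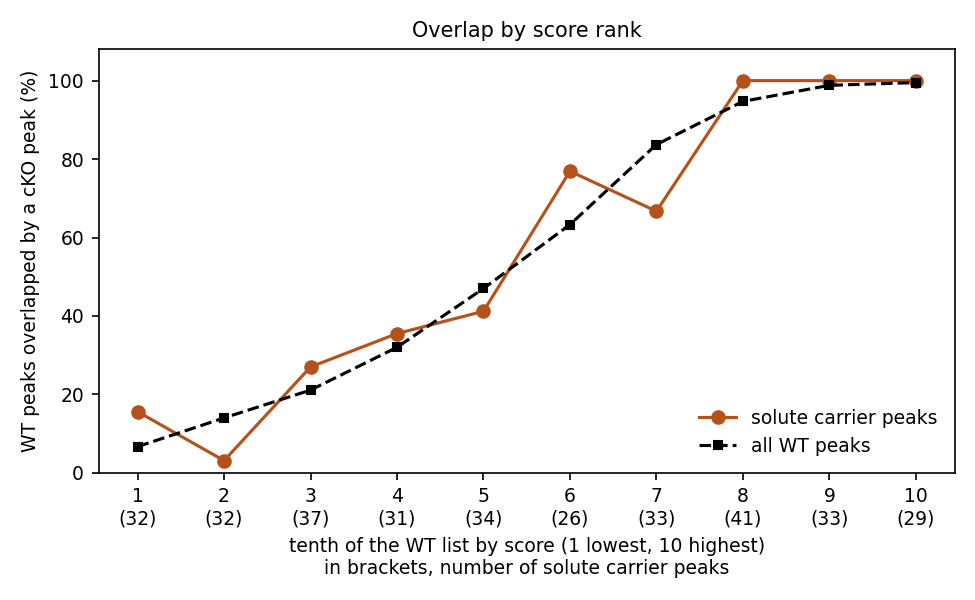
Share of WT peaks, in percent, that a cKO peak overlapped (vertical axis) in each of 10 equal score bins of the WT list (horizontal axis), for solute carrier peaks and for all WT peaks. The line of all WT peaks climbs in every bin, while the carrier line is uneven, with 15.6% in bin 1, 3.12% in bin 2, 76.9% in bin 6 and 66.7% in bin 7. In bins 8 to 10 the carrier line reaches 100%, and that of all WT peaks 94.7%, 98.8% and 99.5%.

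The labelled cell type was checked against its defining genes. The 5 T and Treg genes Cd3e, Cd4, Foxp3, Il2ra and Ctla4 all had peaks in both libraries, with 11 in cKO and 17 in WT. Of 4 B cell genes 1 had a peak in cKO and 2 in WT, of 4 myeloid genes 1 in each, of 4 CD8 and NK genes 2 in each, and of 3 erythroid genes 2 in cKO and 1 in WT. Of these markers Klrb1c (NK cells) lay at up to percentile 85.1 in cKO and 86.6 in WT, Klf1 (erythroid) at 68.7 in cKO and 87.3 in WT, and Cd8b1 at 42.3 in cKO and 53.1 in WT. The B cell gene Cd79a lay at 0.315 in cKO and 63.4 in WT, and Cd79b had 4 peaks in WT alone, the highest at 41.9. Lyz2 (myeloid) and Gata1 (erythroid) had peaks in cKO alone, at 39.1 and 14.7, and Spi1 (myeloid) in WT alone, at 60.4. No peak lay at Ms4a1 (B cells), Csf1r and Itgam (myeloid), Cd8a and Ncr1 (CD8 and NK cells) or Slc4a1 (erythroid) in either library. The part of such cells in the results was not tested. Of 11 kidney and gut carriers that lymphocytes are not known for, 2 had cKO peaks and 4 had WT peaks, and of 10 neuronal carriers 3 had cKO peaks and 4 had WT peaks. Tkt itself had 1 promoter peak in each library, shared, at percentile 67.7 in cKO and 87.6 in WT, and since the labels do not give the floxed part of the gene, this checks nothing about the genotype. The left-out glucose, lactate and cystine carriers had 8 peaks in cKO and 10 in WT. Of the 10, 8 were shared (80.0%, 49.0 to 94.3), beside 56.1% of all WT peaks.

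Amino acid carriers, like the WT list as a whole, had most of their unshared WT peaks outside promoters. These were 30 of 35 for the class and 11192 of 15127 for all WT peaks. The cKO list held 31 peaks of amino acid carriers and the WT list 63, of which 28 were shared (44.4%, 32.8 to 56.7). The share over all WT peaks, 56.1%, lies inside that interval. At promoters 19 of 24 WT peaks were shared (79.2%, 59.5 to 90.8), beside 74.3% of all WT promoter peaks. Elsewhere 9 of 39 were shared (23.1%, 12.6 to 38.3), beside 41.4% of all WT peaks outside the promoter class, which lies above that interval. The median score percentile was 44.5 in the cKO list and 37.6 in the WT list. With the WT list cut to its 19680 highest scores, the length of the cKO list, 22 of 29 were shared (75.9%), beside 83.0% of all WT peaks so kept.

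Carriers known to feed T cell growth had open promoters in both libraries. Slc7a1, the main importer of arginine and lysine, had its promoter peak (chr5:148398632-148400407 in WT) at percentile 95.4 in cKO and 95.2 in WT. Slc3a2, the heavy chain shared by several heteromeric carriers, lay at 88.2 in cKO and 88.7 in WT. Slc1a4, a carrier of serine, alanine and other neutral amino acids, had the strongest WT peak of the class, at 95.4 in cKO and 98.6 in WT. The glutamine carrier Slc1a5 lay at 63.1 in cKO and 80.9 in WT, and Slc38a9, a lysosomal carrier that signals arginine to mTORC1, at 66.3 in cKO and 85.5 in WT. All 5 promoter peaks were shared. The taurine carrier Slc6a6 was at 87.1 in cKO and 85.0 in WT, Slc7a6, a light chain partner of Slc3a2, at 84.9 in cKO and 79.7 in WT, and the lysosomal carrier Slc36a1 at 74.6 in cKO and 87.6 in WT. Slc36a4, its relative, was at 55.5 in cKO and 56.4 in WT, and Slc7a8, a light chain for neutral amino acids, at 30.3 in cKO and 51.6 in WT. Slc7a7 had a peak in intron 2 and none at its promoter, at 36.4 in cKO and 68.2 in WT. Slc6a19, the neutral amino acid carrier of kidney and gut, had a peak 1774 bp before its TSS in WT, shared, at 84.5 in cKO and 78.7 in WT, and both of its distal WT peaks were unshared. The RefSeq start window of Slc6a19 lay under other peaks, assigned to Slc6a19os, at 6.87 in cKO and 23.8 in WT.

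Slc38a1 and Slc7a1 had the most WT peaks of the class, 6 each, and in both the promoter peak was shared while peaks in intron 1 were not all shared. Slc38a1 encodes a sodium-coupled glutamine carrier. Its promoter peak lay at percentile 58.2 in cKO and 69.2 in WT, and 4 of its 6 WT peaks were shared. Both peaks missing from cKO were in intron 1, at chr15:96626670-96627816 (percentile 29.3) and chr15:96638180-96638605 (percentile 69.2). The second of these was 426 bp wide, and the narrowest cKO peak of all was 465 bp. Slc7a1 had 3 of 6 WT peaks shared, which were the promoter and peaks 19736 and 11116 bp downstream of its TSS in intron 1. Its unshared peaks lay 26227 and 21460 bp downstream in the same intron and 19098 bp upstream. Slc38a11, a relative of Slc38a1, had 4 WT peaks in introns 7 and 9, with 2 shared, at 2.27 and 21.3 in cKO and 4.03 and 52.0 in WT. Slc43a1, a carrier of branched-chain amino acids, had a promoter peak in WT alone, at percentile 36.7.

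**Figure D4:**
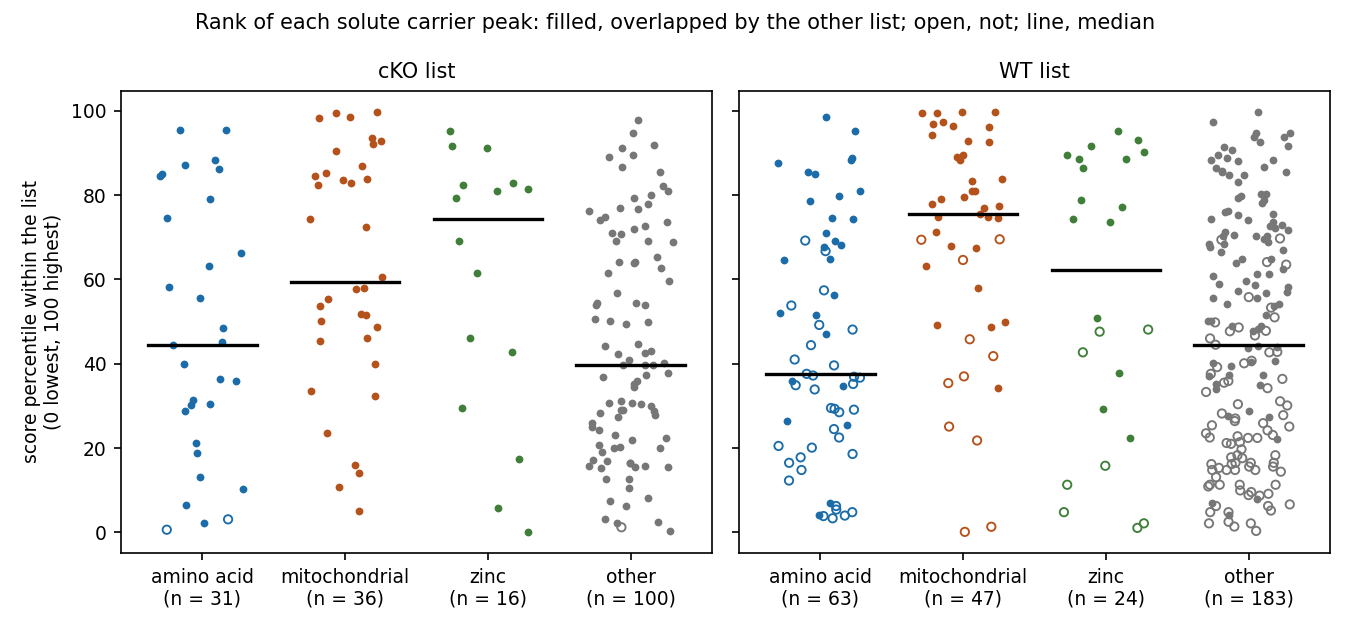
Score percentile within its own list (vertical axis) of every solute carrier peak, by class (horizontal axis), in the cKO list (left) and the WT list (right). Filled points were overlapped by the other list, open points were not and lines mark medians; open points sit low in the WT list, and mitochondrial carriers have a median of 59.3 in cKO and 75.5 in WT.

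Mitochondrial carrier peaks lay mostly at promoters and were shared more often than WT peaks at large. The cKO list held 36 of their peaks, all shared, and the WT list 47, of which 36 were shared (76.6%, 62.8 to 86.4), beside 56.1% of all WT peaks. In the lowest, middle and highest score parts of the WT list 0 of 4, 6 of 11 and 30 of 32 were shared. Of all WT peaks 15.2%, 56.2% and 96.8% were shared in these parts. With the WT list cut to the length of the cKO list 35 of 39 were shared (89.7%), beside 83.0% of all WT peaks so kept. Promoter peaks made up 31 of 36 in cKO and 36 of 47 in WT. Of the 36 WT promoter peaks 31 were shared (86.1%, 71.3 to 93.9), beside 74.3% of all WT promoter peaks, which lies inside that interval. The order of mitochondrial and zinc carriers changed with the setting: with both lists limited to scores above their medians, 71.4% of mitochondrial and 76.9% of zinc WT peaks were shared, and within 10 kb of a TSS 80.0% of each. Neither setting was counted over all WT peaks. Of the 34 genes with a WT peak, 26 had every WT peak shared (76.5%), beside 46.8% over all genes. The median percentile of the class was 59.3 in cKO and 75.5 in WT, beside 50.0 over all peaks of each list. At promoters alone it was 72.5 in cKO and 79.3 in WT, beside 64.1 and 71.2 over all promoter peaks.

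The 4 mitochondrial carriers with the highest WT peaks were Slc25a28, Slc25a25, Slc25a42 and Slc25a38. Slc25a28, the mitochondrial iron importer mitoferrin-2, had its promoter peak (chr19:43674858-43676000 in WT) at percentile 99.5 in cKO and 99.8 in WT, where it ranked 75 from the top. The ATP-magnesium and phosphate carrier Slc25a25 lay at 99.6 in cKO and 99.7 in WT, the coenzyme A carrier Slc25a42 at 98.3 in cKO and 99.5 in WT, and the glycine carrier Slc25a38 at 98.4 in cKO and 99.4 in WT. All 4 promoters were thus among the highest peaks of both libraries. Slc25a51, which imports NAD into mitochondria, lay at 92.9 in cKO and 96.3 in WT at its promoter, and its other 3 WT peaks were unshared. The glutathione carrier Slc25a39 was at 90.4 in cKO and 89.4 in WT, the phosphate carrier Slc25a3 at 84.5 in cKO and 92.6 in WT, and the branched-chain amino acid carrier Slc25a44 at 82.4 in cKO and 94.2 in WT. The citrate carrier Slc25a1 was at 74.4 in cKO and 81.0 in WT, and the pyrimidine nucleotide carrier Slc25a33 at 23.5 in cKO and 74.5 in WT.

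Among the ADP/ATP carriers and among the aspartate-glutamate carriers, a shared promoter stood beside a relative with a promoter peak in WT alone. Slc25a5, the ADP/ATP carrier of dividing cells, lay at 82.8 in cKO and 83.8 in WT. Slc25a4, the form known from heart and muscle, had no cKO peak and a WT promoter peak at chr8:46210425-46211678, percentile 69.5. Slc25a12 lay at 60.6 in cKO and 67.9 in WT, and its relative Slc25a13 had a promoter peak in WT alone, at 45.8. Slc25a20, which carries acylcarnitines into mitochondria for fatty acid oxidation, had a promoter peak in WT alone at chr9:108661808-108662902, percentile 69.4. Slc25a34 and Slc25a43 were the further mitochondrial carriers with a promoter peak in WT alone, at percentiles 64.6 and 21.8. All 5 of these WT promoter peaks lay below percentile 70.

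Zinc carriers had most of their peaks at promoters, and their shares of overlapped peaks had wide intervals. The cKO list held 16 of their peaks, all shared, and the WT list 24, with 16 shared (66.7%, 46.7 to 82.0), beside 56.1% of all WT peaks. At promoters 14 of 16 WT peaks were shared (87.5%, 64.0 to 96.5), beside 74.3% of all WT promoter peaks, which lies inside that interval. Elsewhere 2 of 8 were shared, beside 41.4% of all WT peaks outside promoters. In the exporting Slc30 family 6 of 8 WT peaks were shared and in the importing Slc39 family 10 of 16. The median percentile was 74.3 in cKO and 62.1 in WT. Among exporters, Slc30a1, the exporter of the plasma membrane, lay at 69.2 in cKO and 78.9 in WT. Slc30a5 and Slc30a6, which form a dimer in the early secretory pathway, lay at 80.9 and 81.4 in cKO and at 95.1 and 88.5 in WT. Slc30a9, a mitochondrial zinc carrier, lay at 42.7 in cKO and 73.5 in WT.

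Among importers, Slc39a10, known for zinc uptake in lymphocytes, lay at 95.3 in cKO and 88.5 in WT at its promoter. Slc39a13 lay at 91.7 in cKO and 93.0 in WT, and Slc39a8, which carries zinc and manganese, at 91.2 in cKO and 89.6 in WT. Slc39a1, Slc39a3 and Slc39a14 lay at 82.8, 79.3 and 82.4 in cKO and at 86.3, 90.3 and 91.6 in WT. These promoters were open in both libraries. The distal peaks of Slc39a10 (9872 bp upstream, percentile 48.1) and Slc39a13 (12265 bp upstream, percentile 42.7) and a downstream peak of Slc39a2 (percentile 47.6) were the highest unshared WT peaks of the class. The 2 zinc promoter peaks in WT alone were weak, at percentile 1.07 for Slc30a2 and 2.15 for Slc39a5.

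Carriers of thiamine and its pyrophosphate were shared where they had a peak. Slc19a2, the thiamine importer, lay at its promoter (chr1:164248152-164249616 in WT) at 82.1 in cKO and 93.8 in WT. Slc44a4, a carrier of thiamine pyrophosphate in the colon, had a shared peak 1680 bp upstream of its TSS in WT, at 44.6 in cKO and 75.3 in WT. Slc19a3 had no assigned peak and no peak over its gene in either library.

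Sugar phosphate carriers were also shared at their strongest peaks. Slc37a4, which brings glucose 6-phosphate into the endoplasmic reticulum, lay at its promoter at 77.0 in cKO and 93.8 in WT, and Slc37a1 at 86.7 in cKO and 85.8 in WT. Slc37a3 had no promoter peak, and 2 of its 3 WT peaks in exons and the 3' UTR were shared. The glucose transporter family members Slc2a8 and Slc2a9, the second a urate carrier, lay at 61.5 and 39.7 in cKO and at 80.2 and 64.0 in WT. Over all sugar carriers 14 of 33 WT peaks were shared (42.4%, 27.2 to 59.2) and 5 of 10 at promoters (50.0%, 23.7 to 76.3), beside 56.1% of all WT peaks and 74.3% of all WT promoter peaks, both inside these intervals. The myo-inositol carrier Slc5a11 had 6 WT peaks and 1 shared, and none of the 5 WT peaks of Slc45a4 was shared. The peak of Slc45a4 2265 bp upstream of its TSS, at percentile 69.7, was the highest unshared WT peak of all carriers.

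Over all carriers outside the amino acid, mitochondrial and zinc classes, 99 of 100 cKO peaks were shared, beside 97.6% of all cKO peaks. Of their 183 WT peaks 98 were shared (53.6%, 46.3 to 60.6), beside 56.1% of all WT peaks. With the WT list cut to the length of the cKO list, 81 of 95 were shared (85.3%), beside 83.0% of all WT peaks so kept. Among inorganic ion and metal carriers 37 of 68 WT peaks were shared (54.4%), and among organic anion and cation carriers 16 of 31 (51.6%). Among peptide, vitamin and lysosomal carriers 12 of 18 were shared (66.7%), and among lipid and choline carriers 11 of 17 (64.7%). Among nucleoside and nucleotide sugar carriers 8 of 16 were shared (50.0%). The 56.1% of all WT peaks lies inside the 95% interval of each of these shares. The 8 shared nucleoside and nucleotide sugar carrier peaks were all promoter peaks, of 9 at promoters in WT (88.9%, 56.5 to 98.0), beside 74.3% of all WT promoter peaks. The strongest peak of the group was assigned to Slc23a3, a relative of the ascorbate carriers, but lay 8410 bp from its TSS and within 1 kb downstream of a gene, at 97.7 in cKO and 99.6 in WT. The anion exchanger Slc26a6 lay at its promoter at 91.8 in cKO and 97.4 in WT, and Slc33a1, which carries acetyl-CoA into the endoplasmic reticulum, at 88.9 in cKO and 94.8 in WT. The magnesium carrier Slc41a1 lay at 94.7 in cKO and 92.5 in WT, Slc46a3, a lysosomal carrier, at 80.9 in cKO and 88.2 in WT, and the fatty acid carrier Slc27a1 at 80.1 in cKO and 85.5 in WT.

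Further promoters had middle ranks in cKO. The lysosomal nucleoside carrier Slc29a3 lay at 69.2 in cKO and 91.5 in WT, the aromatic amino acid carrier Slc16a10 at 69.2 in cKO and 80.2 in WT, and the carnitine carrier Slc22a5 at 68.9 in cKO and 83.2 in WT. The nucleoside carrier Slc29a1 lay at 54.4 in cKO and 79.3 in WT, the CMP-sialic acid carrier Slc35a1 at 50.5 in cKO and 76.0 in WT, and the bicarbonate carrier Slc4a7 at 42.3 in cKO and 66.9 in WT. The potassium chloride cotransporter Slc12a7 had 4 of 6 WT peaks shared, with its promoter at 49.9 in cKO and 79.7 in WT. The choline carrier Slc44a1 lay at 40.9 in cKO, over 2 WT promoter peaks at 40.4 and 60.7. Slc12a2, which imports sodium, potassium and chloride, had 3 WT peaks and no cKO peak, with its strongest at percentile 63.5 at the promoter. Slc9a9, an endosomal sodium proton exchanger, had 2 assigned intron peaks in WT, both unshared, while its start lay under peaks of Gm29395 in both libraries, at 58.8 in cKO and 53.8 in WT. Of the lysosomal peptide and histidine carriers, Slc15a4 had no cKO peak of its own symbol, but a cKO peak assigned to Gm43474, at 43.4, overlapped its WT promoter peak, at 72.3. Its relative Slc15a3 had 2 promoter peaks in WT, of which the one 2765 bp upstream of the TSS was shared, at 28.3 in cKO and 37.1 in WT.

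By gene, the promoter class held peaks of both lists for 119 carriers, of cKO alone for 2 and of WT alone for 30. Over all genes these counts were 10623, 181 and 3171. So 79.9% of carriers with a WT promoter peak also had one in cKO, beside 77.0% over all genes. With the WT list cut to the length of the cKO list the carrier counts were 105 in both, 16 in cKO alone and 9 in WT alone. With both lists limited to scores above their medians they were 77, 2 and 31. Neither setting was counted over all genes, so these counts cannot be read as particular to carriers. The 2 genes in cKO alone were the phosphate carrier Slc20a1 and the choline carrier-like Slc44a2. Their cKO promoter peaks, at 89.5 and 50.1, overlapped WT peaks that the authors assigned to the neighbouring models Gm4430 and Gm39302. By position neither was therefore a peak of cKO alone. Of the 30 genes in WT alone, Slc15a4 had a WT promoter peak that a cKO peak of another symbol overlapped. The start of the myo-inositol carrier Slc5a3 lay under peaks of AC144408.3 in both libraries, at 62.4 in cKO and 81.3 in WT. Counting every peak, 147 carriers had one in both libraries, 2 in cKO alone and 46 in WT alone. Over all genes these counts were 13799, 244 and 5416. So 76.2% of carriers with a WT peak also had a cKO peak, beside 71.8% of all genes. Of the 193 carriers with a WT peak, 45 had none shared (23.3%), beside 28.0% of all genes, and 98 had all shared (50.8%), beside 46.8%. Per class, carriers with no WT peak shared numbered 10 of 32 for amino acids, 6 of 34 for mitochondria and 2 of 17 for zinc.

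Of the 191 cKO carrier peaks 3 lacked a WT overlap, beside 464 of all 19680 cKO peaks. None of the 129 carrier promoter peaks in cKO lacked one, beside 93 of all 11370 cKO promoter peaks. The 3 unshared peaks were a peak in intron 1 of the glial glutamate carrier Slc1a2 (chr2:102692383-102692880), a peak 20941 bp upstream of Slc1a5 (chr7:16759483-16760399) and a distal peak of the bicarbonate carrier Slc4a5 (chr6:83215190-83215779). Their percentiles in the cKO list were 0.638, 3.10 and 1.22, beside a median of 5.62 over all unshared cKO peaks. In the other direction, 7 of 121 carrier peaks in the highest of the 3 equal parts of the WT list were unshared. This was so for 370 of all 11480 WT peaks there. The 7 carrier peaks all lay below percentile 70. Besides the promoters of Slc25a4 and Slc25a20, the intron peak of Slc38a1 and the upstream peak of Slc45a4 described above, the 7 were a 3' UTR peak assigned to Slc36a3 (chr11:55158562-55159428, 66.7), a distal peak of the vesicular nucleotide carrier Slc17a9 (chr2:180745070-180745876, 69.4) and a peak assigned to the pseudogene Slc2a4rg-ps (chr2:181392199-181393132, 66.8). The last lay in an intron of Zbtb46.

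To set ranks side by side on equal terms, the 18926 pairs in which 1 cKO peak overlapped 1 WT peak were ranked from 0 to 100 among themselves in each library, a measure chosen after the data were seen. Of 183 carrier pairs 6 differed by at least 25 points (3.28%), beside 5.80% of all pairs. Higher in cKO were 3 pairs, beside 3.34% of all, and lower in cKO were 3 pairs, beside 2.46% of all. At a gap of 15 points 37 of the 183 carrier pairs differed, beside 21.8% of all pairs, and at 35 points 0 did, beside 1.13% of all. The promoters of the heme carrier Slc48a1 (rank 71.2 in cKO, 43.4 in WT) and the amino acid carrier Slc36a4 (54.3 in cKO, 27.9 in WT) were among those that ranked higher in cKO. The exon peak of the anion carrier Slc26a11 (11.1 in cKO, 45.4 in WT), the promoter of Slc25a33 (21.8 in cKO, 54.8 in WT) and an intron peak of the scaffold gene Slc9a3r1 (21.7 in cKO, 49.9 in WT) ranked lower. The difference of cKO minus WT ran from -20.2 to 26.4 points over 28 amino acid pairs, from -33.0 to 17.3 over 36 mitochondrial pairs and from -11.9 to 15.8 over 16 zinc pairs. Medians were 0.58, -2.41 and 1.25 points, beside -0.36 over all pairs. Whether any of these gaps exceeds the spread between libraries of 1 genotype could not be measured.

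**Figure D5:**
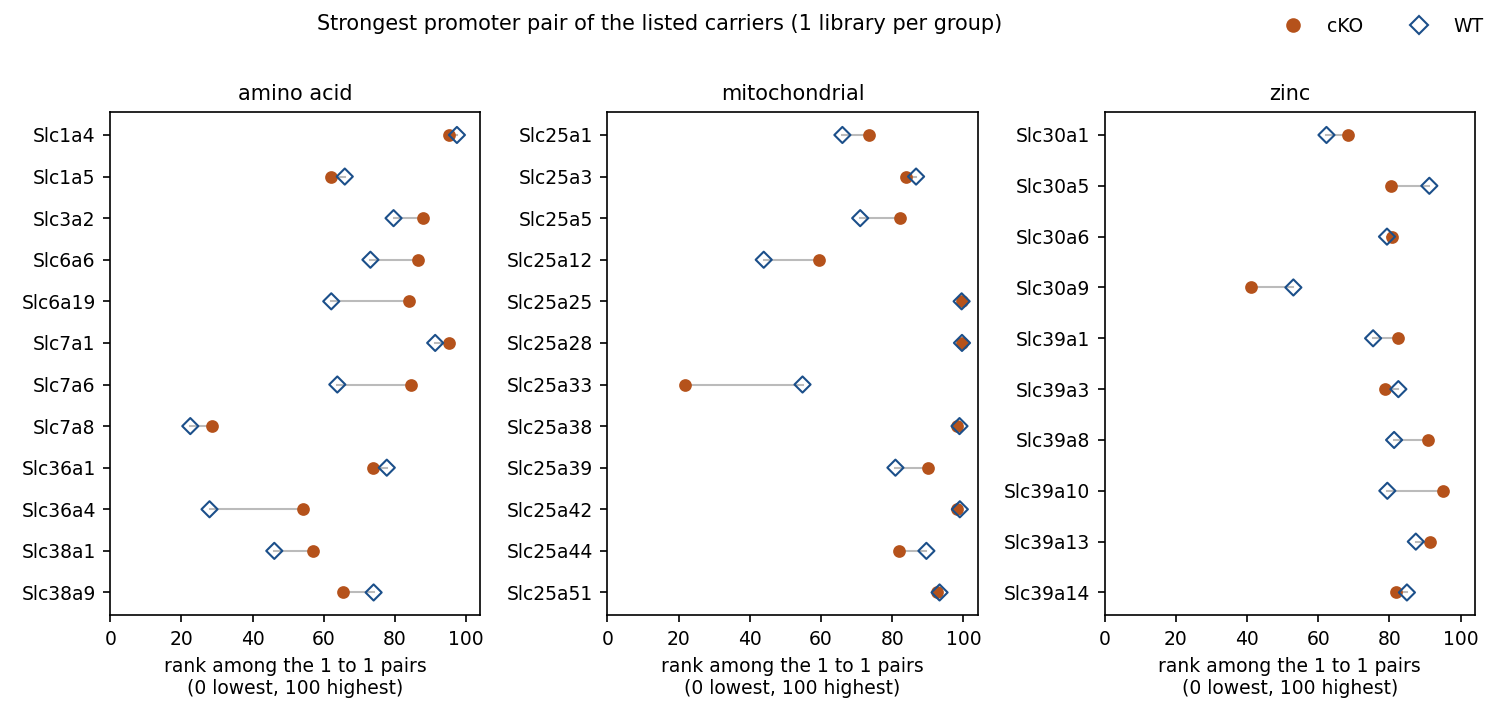
Rank among the 18926 1 to 1 pairs (horizontal axis, 0 lowest to 100 highest) of the strongest promoter pair of carriers with a pair, in cKO (filled circles) and WT (open diamonds). Slc25a25, Slc25a28, Slc25a38 and Slc25a42 sit near 100 in both, Slc36a4 is higher in cKO (54.3 in cKO, 27.9 in WT), and Slc25a33 is lower in cKO (21.8 in cKO, 54.8 in WT).

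Some carriers had open promoters under peaks that the authors assigned to another symbol, which the rule by symbol cannot count. This was so for 25 of the 118 open start windows, 19 of them of genes with no assigned peak. The start of Slc38a2, a neutral amino acid carrier induced by amino acid shortage, lay under a peak assigned to Gm38144 at 84.6 in cKO and 87.6 in WT, and that of Slc43a2 under one assigned to Gm45606 at 90.1 in cKO and 89.9 in WT. Slc7a5, the light chain that pairs with Slc3a2, had no window, and a peak assigned to BC048644 lay over its RefSeq gene span at 89.5 in cKO and 96.3 in WT. The start of the dicarboxylate carrier Slc25a10 lay at 29.5 in cKO and 52.6 in WT under Gm11788, that of the oxoglutarate carrier Slc25a11 at 81.5 in cKO and 91.0 in WT under Rnf167, and Slc25a32, a carrier of folate and FAD, held a peak of Dcaf13 within its gene span at 90.0 in cKO and 96.9 in WT. The starts of the zinc carriers Slc39a7 and Slc30a7 lay under Gm20427 at 46.2 in cKO and 77.9 in WT and under Extl2 at 79.5 in cKO and 86.3 in WT. All 6 of these starts with a window were open in both libraries. The start of the sugar phosphate carrier Slc37a2 lay under a peak of Gm48081 at 82.1 in cKO and 75.4 in WT. By gene span, the zinc importer Slc39a6 held a peak of Elp2 at 82.1 in cKO and 95.2 in WT. The iron importer Slc11a2 held one of Gm5475 at 65.4 in cKO and 83.3 in WT, and Slc16a6 one of Arsg at 66.1 in cKO and 81.0 in WT. The nucleoside carrier Slc28a2 had no cKO peak and a WT peak of Gm14086 at 0.0581. The erythroid iron carrier Slc25a37, the iron exporter Slc40a1, the phagosomal metal carrier Slc11a1 and the inositol carrier Slc2a13 had no peak over their gene spans in either library.

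The rule also took 9 symbols with letters after the member number, which are antisense genes, pseudogenes, binding partners of carriers or, for Slc5a4b, a paralog. They held 8 cKO peaks, all shared, beside 97.6% of all cKO peaks. Of their 11 WT peaks 8 were shared (72.7%, 43.4 to 90.3), beside 56.1% of all WT peaks. Peaks were assigned to a single gene, and of the 26 cKO and 74 WT intron peaks of carriers, 25 and 62 lay in an intron of the assigned gene.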

How the data were processed

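ATAC-seq peak lists of 1 cKO and 1 WT Treg library were used, with groups taken from the labels. The labels also give the molecule as total RNA and the library source as transcriptomic, which conflicts with their ATAC-seq protocol and the peak files. Per the submitters' processing notes, the tools were MACS2, BWA, FastQC and Trimmomatic and the build was mm10. How peaks were annotated, how duplicates and the Tn5 shift were handled, and all versions and settings: not given in the sources used here. The authors deposited, for each peak of 1 library, its position, width, score, annotation class, assigned gene and distance to the TSS. The meaning of the score is not stated, so scores were ranked within their own list. Read totals were not used, and depth is unknown.

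Overlaps of at least 1 bp were computed in python 3.11.15 with pandas 2.3.3, checked against bedtools 2.31.1, which differed at 0 peaks, and tested on simulated data. Intervals are Wilson 95% intervals. Carriers were classed by family number, so not every member of a class carries the substrate that the class is named for. The urate carrier Slc2a9 counted among sugar carriers, and the aromatic amino acid carrier Slc16a10 among organic anion and cation carriers. The members, classes, named genes and markers were chosen with earlier results of these data known. Genes named with values were lists of amino acid, mitochondrial, zinc, thiamine, sugar phosphate and immune-related carriers, and per class the 3 genes with most WT peaks, the 3 with the highest WT peak, the 3 with the highest unshared WT peak and all with an unshared cKO peak. Slc25a31, Slc5a3, Slc25a34, Slc25a43, Slc26a11, Slc9a3r1, Slc39a5 and Slc2a4rg-ps were added after their values were seen. Of the 195 symbols 194 were found in RefSeq tables and 151 had a promoter sequence. RefSeq sequences and gene spans are of GRCm38.p6. The use of RefSeq start windows and gene spans and the ranks of peak pairs were added after the data were seen. Some carriers and a marker are not reported here.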

Additional observations from a re-analysis of the deposited data

How the results depend on the processing

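Of 86 alternative values over 14 results, 66 stayed within the main 95% interval, or within 1.5 times a count, and 20 did not. An overlap covering at least 50% of the shorter peak, WT peaks at least 465 bp wide, suffixed symbols left out, the carriers with most WT peaks left out (all tied carriers) and promoters within 1 kb moved none of the results they were run on beyond that. With the WT list cut to 19680 peaks, the shared share was 83.2% of cKO carrier peaks and 83.9% of WT carrier peaks, 75.9% for amino acid, 89.7% for mitochondrial, 86.7% for zinc and 85.3% for other carriers, 93.3% for WT promoter peaks and 94.2% for RefSeq starts open in WT, and genes with a promoter peak were 16 in cKO alone and 9 in WT alone. By construction this setting keeps the highest WT scores. Of all WT peaks so kept 83.0% were shared, and the other values of this setting were not computed over all peaks or genes. With both lists above their median scores, 100% of cKO carrier peaks, 70.5% of WT carrier promoter peaks and 80.0% of RefSeq starts were shared, and 77 genes had a promoter peak in both. Within 10 kb of a TSS 66.7% of WT carrier peaks and 62.5% of those of other carriers were shared, and the median percentile was 57.8 in cKO and 64.6 in WT. The settings above the medians and within 10 kb were not computed over all peaks or genes. At a gap of 15 points 37 carrier pairs differed, beside 21.8% of all pairs, and at 35 points 0 did, beside 1.13%; these gaps and the RefSeq settings were chosen after seeing the data. The cause of these shifts was not tested. No paired analysis was possible because neither genotype had more than 1 library, which also leaves no replicate to drop. Depth is unknown, which limits every statement on a missing peak.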
